A study of Homo sapiens with 2 samples.

Results

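Genes of the matrix metalloproteinases (MMP), the ADAM and ADAMTS proteases and their inhibitors were compared between 2 one-colour arrays of SW620 cells, an established colon carcinoma line. They were chosen by gene symbol: every probe named MMP, ADAM or ADAMTS with a number, TIMP1 to TIMP4, or RECK. This gave 73 probes for 65 genes, out of 24459 probes and 18638 named genes on the arrays: 22 MMP genes, 20 ADAM genes, 18 ADAMTS genes, and 4 TIMP genes with RECK. Of 68 RefSeq genes whose symbols fit the rule, ADAM6, ADAM7 and ADAMTS7 were not analysed here. One array held total RNA of cells given the control lentivirus, and the second held total RNA of cells expressing CDR1AS, a circular RNA that binds the microRNA miR-7. Both were cultured in DMEM with serum. The labels name neither the promoter of the vector nor whether the cells are a pool or 1 clone. With 1 array per group there was no replicate error and no test. The differences below are between 2 arrays, and vector, culture and array effects cannot be told apart.

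Those of these proteases that have a catalytic site are zinc enzymes of the metzincin type. MMPs are made as inactive precursors and, once cut, digest collagens, laminins, proteoglycans and many secreted proteins. ADAMs sit in the plasma membrane, and those with a catalytic site cut the outer parts of other membrane proteins. This releases growth factors, cytokine receptors and Notch fragments. ADAMTS proteases are secreted and process procollagens, proteoglycans, fibrillin or von Willebrand factor. TIMPs are secreted inhibitors that occupy the active site, and RECK is a membrane-anchored inhibitor. In colon tumours MMP7 comes from the epithelial cells themselves, whereas stromal and inflammatory cells make many of the other MMPs.

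The members were mostly dim. The background limit of an array was the mean of its blank spots plus 2 SD, or 69.1 intensity units with the control virus and 72.1 with CDR1AS. By this limit 51 of the 65 genes were measured, 47 of them on both arrays, against 16685 of 18638 named genes. On the CDR1AS array the median spot of Negative Control 1 (72.2) was itself just past the limit. Those of Negative Control 2, 3 and 4 were not (70.0, 70.2 and 69.6). A spot near the limit therefore need not show expression. The median spot of the 51 was at 1.15 times the limit with the control virus and 1.17 times with CDR1AS. For all measured genes these were 1.82 and 1.87 times. Only 6 of the 51 (11.8%) exceeded 2 times the limit on both arrays, against 44.3% of all measured genes. The main values are log2 intensities after normexp correction with an offset of 50 and quantile normalization. That offset compresses the folds of dim genes, so the authors' deposited table, which holds spot intensity minus a blank level on a common scale, is given beside them.

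On the main scale 0 of the 51 members were at or past 2-fold in either direction. Over all 16685 genes, 126 (0.755%) were at least 2-fold higher on the CDR1AS array and 96 (0.575%) at least 2-fold lower. In the authors' deposited table, which had values on both arrays for 16250 genes, TIMP3 was past 2-fold higher (background 3.32%) and MMP7 past 2-fold lower (background 2.25%). Beyond 0.5 on the log2 scale lay 3 members: TIMP3 and TIMP2 were higher and MMP7 was lower. That is 5.88% of the members measured, beside 6.57% of all genes. Of the 51 log2 ratios, 38 were within 0.1 of 0 (74.5%, against 52.1% of all genes), and the part of dimness in this was not tested. Ratios of genes near the floor do not show that they kept their level. In the authors' deposited table the dim genes ADAM23 and ADAMTS6, for example, had log2 ratios of 0.86 and −0.78. The median log2 ratio was −0.015 for the 16 measured MMP genes, 0.0011 for the 18 ADAM genes, −0.016 for the 12 ADAMTS genes and 0.04 for the TIMP genes with RECK. Over all genes it was −0.0044.

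The same count was made under the alternative settings. With an offset of 16, TIMP3 was past 2-fold higher (background 1.4%) and MMP7 lower (1.04%). After subtraction of a local background column, TIMP1 was higher (4.39%) and 0 members were lower (3.44%). Whether that column is a true background is doubtful, since across the spots above the limit it rose with the spot itself (Pearson's r of the log2 values 0.975 over 20642 control spots and 0.939 over 21322 CDR1AS spots, as a description). It is therefore not part of the main setting, and values after its subtraction are given to show how far they move. The remaining settings gave 0 members in either direction. Their backgrounds, higher then lower, were 0.815% and 0.533% with scaling to a common median, and 0.755% and 0.569% with cyclic loess. They were 0.676% and 0.515% without a filter on dim probes, and 1.01% and 0.879% where both arrays had to reach 2 times the limit. A limit at 3 SD gave 0.779% and 0.594%, and the median over the probes of a gene 0.689% and 0.545%.

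**Figure D1:**
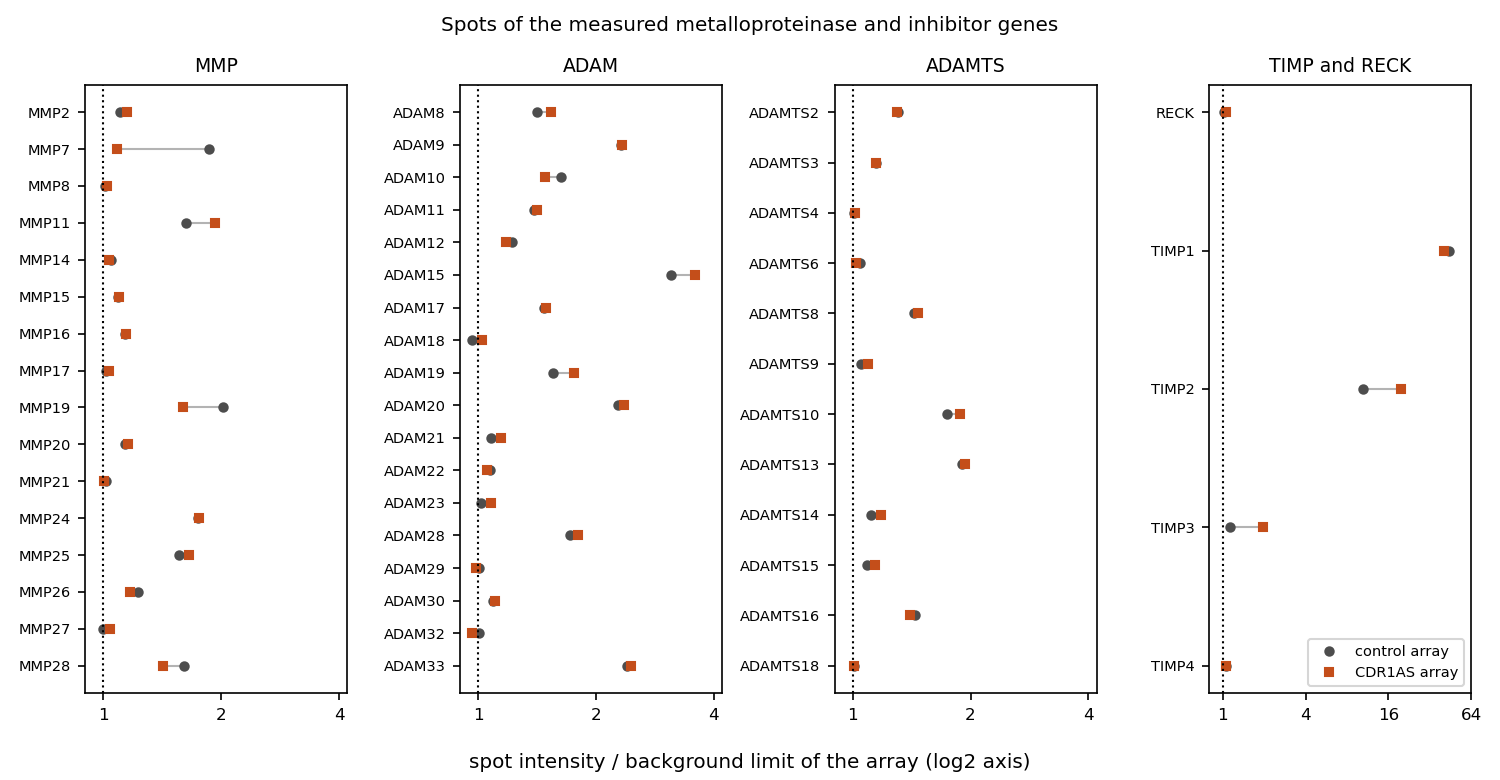
Spot intensity of each of the 51 measured genes divided by the background limit of its array (log2 axis), as a circle for the control array and a square for the CDR1AS array, by family; the dotted line is the limit, and the TIMP panel has a wider axis. The wide gaps are those of MMP7 and MMP19 (lower on the CDR1AS array) and of TIMP2 and TIMP3 (higher), while most pairs nearly coincide; intensities of different probes are not comparable.

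MMP7 encodes matrilysin, a small MMP without a hemopexin domain that epithelial and tumour cells secrete. Its spot was at 129 with the control virus and 78.2 with CDR1AS, which placed it at 1.86 and 1.08 times the background limits. The spot was thus clearly above background with the control virus and close to it with CDR1AS. In the authors' deposited table the values were 29.9 and 4.0, or 7.47-fold lower. Moving both spots by 2 SD of the blank spots in opposite directions gave a range of 5.47-fold to 11.2-fold lower, which covers the spread of blanks only. On the main scale the log2 ratio was −0.94, or 1.91-fold lower, and 121 of the 16685 genes were lower still. With an offset of 16 it was −1.59. After subtraction of the local background column the log2 ratio was near 0 (−0.05). That column itself differed at this spot, at 107 with the control virus and 59.5 with CDR1AS.

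Promoter windows, from 250 bases before to 50 after the start site, are given for MMP7 and TIMP3, the members with the widest differences in the authors' deposited table in each direction. They come from RefSeq on GRCh38.p14, whose table held 38 of the 65 members. Capitals mark the AP-1 site TGANTCA (the same on both strands), the TCF motif CTTTGAA or CTTTGAT on either strand, and the TATA box TATAAA on either strand.
MMP7, chr11:102530698-102530997, minus strand: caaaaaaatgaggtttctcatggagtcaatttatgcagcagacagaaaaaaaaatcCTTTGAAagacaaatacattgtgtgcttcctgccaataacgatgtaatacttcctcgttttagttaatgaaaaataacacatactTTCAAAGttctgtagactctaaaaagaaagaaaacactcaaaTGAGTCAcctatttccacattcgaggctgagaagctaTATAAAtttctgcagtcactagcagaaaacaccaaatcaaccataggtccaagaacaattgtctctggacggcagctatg
TIMP3, chr22:32801455-32801754, plus strand: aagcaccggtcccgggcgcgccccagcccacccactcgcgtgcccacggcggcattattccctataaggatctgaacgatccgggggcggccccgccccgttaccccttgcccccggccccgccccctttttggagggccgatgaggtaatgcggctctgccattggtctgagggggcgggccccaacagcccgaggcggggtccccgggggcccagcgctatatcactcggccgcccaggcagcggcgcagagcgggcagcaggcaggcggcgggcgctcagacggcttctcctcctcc

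The MMP7 window held all 3 motifs, none overlapping another. AP-1 (TGAGTCA) began at position −67 from the start site, the TCF motif at −194 and, on the other strand, at −109, and the TATA box at −30. Over the first listed window of 27305 genes, 7.76% held the AP-1 letters, 6.98% the TCF letters and 12% the TATA letters. Among the 38 members the AP-1 letters were also in the windows of MMP10, MMP20 and ADAMTS12, and the TCF letters in that of MMP21. The TATA letters were in 6 of the 11 MMP windows, and in 1 of 12 ADAM and 1 of 11 ADAMTS windows. The TIMP3 window held none of these letters. It had 72.7% G and C bases with 31 CpG pairs, against 35.7% and 4 in the MMP7 window and medians of 58.3% and 14 over all windows. These matches describe the sequence and no binding was measured.

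MMP19, a broadly expressed MMP first described in inflamed joints, had the next lowest ratio among the proteases. Its brightest probe was at 140 with the control virus and 115 with CDR1AS, with 35.2 and 20.8 in the authors' deposited table (1.69-fold lower) and a log2 ratio of −0.42. A further probe went the same way (103 and 95.8, −0.22, or 0.08 after local background subtraction), and the dimmest of the 3 probes differed little (77.4 and 80.4, −0.03). MMP28, or epilysin, an MMP of epithelia, was at 111 and 102 (−0.23, 1.43-fold lower in the authors' deposited table). MMP11, or stromelysin-3, which furin activates inside the cell, was the highest MMP by ratio, at 113 and 139 (0.24, 1.42-fold higher in the authors' deposited table). For the brightest probe of each of these 3 genes the range over 2 SD of the blank spots did not include 1, and all main values stayed within 2-fold. That range covers the spread of blanks only. Among the 47 members above background on both arrays it spanned 1 for 34, lay above 1 for 8 and below 1 for 5. MMP26, a matrilysin like MMP7, was at 84.9 and 84.2 (−0.11).

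Of the collagenases, which cut fibrillar collagen, MMP1 and MMP13 were not above background on either array and MMP8 was barely so (69.8 and 73.7, log2 ratio −0.0055). Of the gelatinases, which digest denatured collagen and basement membrane, MMP9 was not above background and MMP2 was close to it (76.3 and 82.8, 0.05). The stromelysin genes MMP3 and MMP10 and the macrophage elastase gene MMP12 were not above background either. All 6 genes of the membrane-type MMPs were above background on both arrays, with log2 ratios from −0.04 to 0.07. Among them MMP14, the membrane MMP that activates the precursor of MMP2, was at 72.2 and 74.5 (−0.04) and MMP25 at 108 and 119 (0.07). MMP24 was at 121 and 127 (−0.03). Near the floor were MMP14 (1.04 and 1.03 times the limits), MMP15 (1.09 and 1.09) and MMP17 (1.02 and 1.03). The small ratios of these genes do not show that they kept their level. MMP27 was above background on the CDR1AS array only (69.1 with the control virus, just under the limit, and 75.1 with CDR1AS). With the control value at the lowest level above background it was 1.03-fold higher there, without allowing for the spread of the blanks.

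A run of 9 MMP genes lies together on chromosome 11 in the RefSeq annotation, apart from MMP26 on the same chromosome, in the order MMP7, MMP20, MMP27, MMP8, MMP10, MMP1, MMP3, MMP12 and MMP13. Within this cluster MMP7 alone was past 0.1 on the log2 scale. MMP20 (0.0066), MMP8 (−0.0055) and MMP27 (0.05) were near the floor, and the other 5 were not above background. A difference in genes at the floor was not detectable at this signal, so their values do not show that they kept their level.

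**Figure D2:**
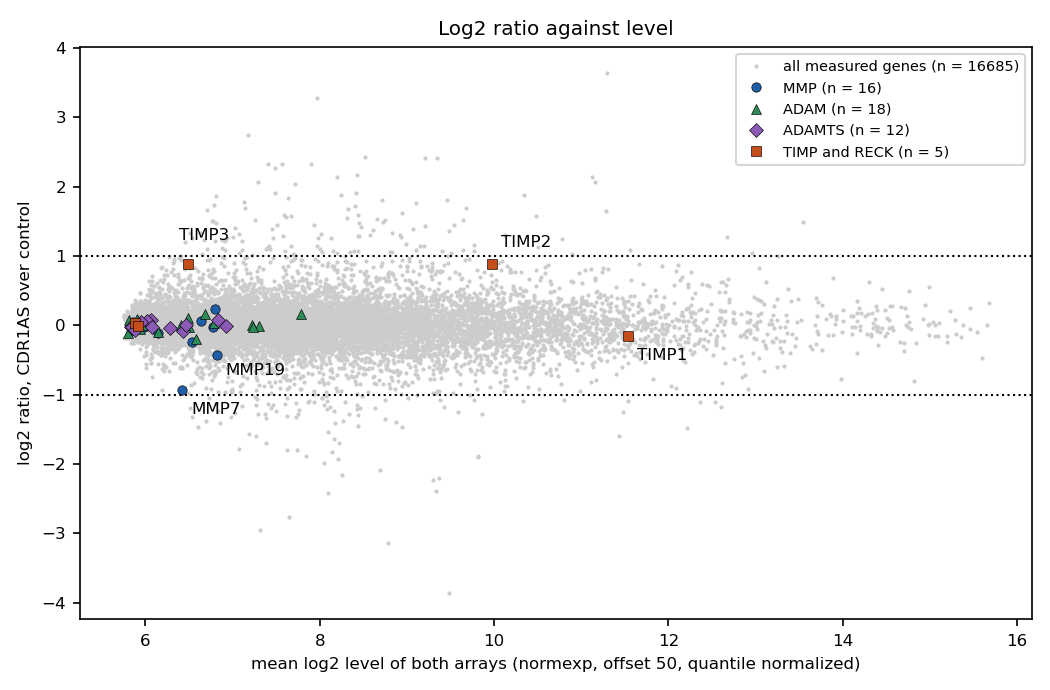
Log2 ratio of the CDR1AS array over the control array (vertical) against the mean log2 level of both arrays (horizontal) for all 16685 measured genes in grey and the 51 members in colour; dotted lines mark 2-fold. TIMP2 and TIMP3 lie just below the upper line and MMP7 just above the lower one, and most members sit at the dim end on the left near 0.

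The TIMP genes held the other large differences. TIMP3 encodes the TIMP that stays bound to the matrix and also inhibits ADAM17 and aggrecan-cutting ADAMTS proteases. Its spot was at 77.6 with the control virus and 140.4 with CDR1AS, so it was near the floor with the control virus and at 1.95 times the limit with CDR1AS. The authors' deposited table had 5.7 and 32.4, or 5.68-fold higher. Moving both spots by 2 SD of the blanks gave 4.39-fold to 8.27-fold. The main log2 ratio was 0.89 (1.85-fold), and 172 of the 16685 genes were higher. It was 1.46 with an offset of 16 and 0.19 after subtraction of the local background column, which was 60.3 and 90.9 at this spot.

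TIMP2, which inhibits most MMPs and at the cell surface links MMP14 to the precursor of MMP2, was the best measured of the 3. Its spot was at 724 with the control virus and 1426 with CDR1AS, both far above background. In the authors' deposited table it had 313.7 and 620.5, or 1.98-fold higher, and the main log2 ratio was 0.88 (1.85-fold). It was 0.92 with an offset of 16, so the size did not rest on the offset. Within an array the repeated positive-control spots (24 of each kind) had log2 SDs of 0.10 to 0.24, and between the arrays their mean spot intensities, before normalization, were 0.12 and 0.55 higher on the CDR1AS array. Subtraction of the local background column turned its direction (−0.24), where that column rose from 351 on the control array to 826 on the CDR1AS array. MMP2 and MMP14, the partners of TIMP2, were near the floor, so their small ratios given above do not show that they kept their level. In the authors' deposited table MMP2 had 5.0 and 6.1, and MMP14 had 3.0 and 2.3. Over 2 SD of the blank spots the fold of CDR1AS over control ran from 0.76 to 2.13 for MMP2 and from 0.24 to 2.38 for MMP14.

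TIMP1, a secreted inhibitor that SW620 cells expressed far above background, was at 3056 with the control virus and 2908 with CDR1AS. The log2 ratio was −0.15, and in the authors' deposited table TIMP1 was 1.10-fold lower. After subtraction of the local background column it was 1.02, past 2-fold higher, as were 4.39% of all genes then. That column was 2597 with the control virus and 1035 with CDR1AS for this spot. A dim second probe, annotated to a genomic record, gave −0.05. TIMP4 was near the floor (72.5 and 76.3, −0.01), as was RECK (70.1 and 75.7, 0.04). Of the 4 TIMP genes, then, TIMP2 and TIMP3 were higher on the CDR1AS array in every setting that measured them except local background subtraction, where TIMP2 turned and TIMP3 shrank.

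**Figure D3:**
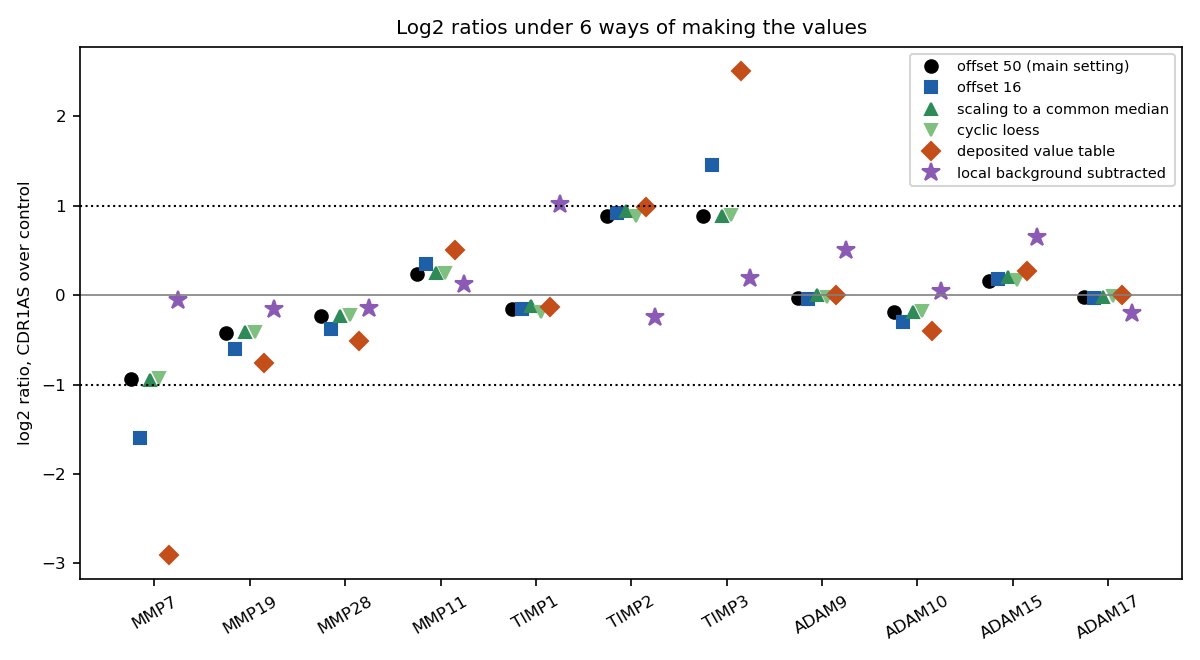
Log2 ratio of the CDR1AS array over the control array for 11 members under 6 ways of making the values, each a symbol; dotted lines mark 2-fold. MMP7 and TIMP3 move furthest, to −2.90 and 2.51 in the deposited value table, whereas with the local background subtracted (stars) MMP7 lies near 0 at −0.05, TIMP2 at −0.24 and TIMP1 at 1.02.

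The ADAM genes had small log2 ratios on the main scale. All 12 with a catalytic site were above background on both arrays, with log2 ratios from −0.19 to 0.16. ADAM10, the sheddase of Notch and many other receptors, was lowest, at 113 with the control virus and 107 with CDR1AS (−0.19). In the authors' deposited table it was 1.32-fold lower, with 22.5 and 17.1. ADAM17, which releases TNF and ligands of the EGF receptor, was at 102 and 107 (−0.02), and its other probe was at 101 and 101 (−0.11). ADAM15, which carries an integrin-binding motif, was at 215 and 258 (0.16), and ADAM19 at 108 and 127 (0.16). ADAM8, found on leukocytes and tumour cells, was at 97.5 and 111 (0.11). ADAM9 was at 160.1 and 168 (−0.03), ADAM33 at 166 and 177 (−0.0057) and ADAM12 at 84.4 and 84.7 (−0.09). ADAM20, known from testis, was at 158 and 170.1 (0.01). Local background subtraction gave 0.65 for ADAM15 and 0.51 for ADAM9, and turned ADAM10 (0.05) and ADAM19 (−0.22).

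The ADAM genes without a catalytic site serve in adhesion, in fertilisation or as synaptic receptors. ADAM11 was at 96.2 and 102 (−0.0013), ADAM22 at 74.0 and 76.0 (−0.05) and ADAM23 at 70.1 and 77.8 (0.08, but 0.86 in the authors' deposited table). ADAM29 (69.6 with the control virus and 71.3 with CDR1AS) and ADAM32 (69.6 on each array) were above background on the control array only. ADAM18 (66.6 and 73.9) was so on the CDR1AS array only. With the dim value at the lowest level above background, ADAM29 and ADAM32 were 1.03-fold lower with CDR1AS and ADAM18 1.01-fold higher. Spots this near the limit do not settle a direction. ADAM2, a sperm protein gene, and the pseudogene ADAM5 were not above background.

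The 12 measured ADAMTS genes had log2 ratios between −0.09 and 0.08 on the main scale, and between −0.78 and 0.42 in the authors' deposited table, where the dim genes ADAMTS6 (1.72-fold lower, 3.1 and 1.8) and ADAMTS14 (1.34-fold higher, 5.3 and 7.1) were at the ends. ADAMTS10, which acts on fibrillin, was highest (121 with the control virus and 135 with CDR1AS, 0.08), followed by ADAMTS14 (77.0 and 84.9, 0.07) and ADAMTS15 (0.06). ADAMTS16 was lowest (99.8 and 101, −0.09), then ADAMTS6 (72.3 and 73.4, −0.07) and ADAMTS2 (90.2 and 93.4, −0.04), whose other probes gave −0.01 each. ADAMTS13, the protease of von Willebrand factor, was at 132 and 140 (−0.01) and ADAMTS8 at 98.9 and 106 (0.0070). All 3 procollagen N-propeptidase genes (ADAMTS2, ADAMTS3 and ADAMTS14) were measured. Of the 7 proteoglycan-cutting ADAMTS genes 4 were measured, and ADAMTS1, ADAMTS5 and ADAMTS20 were not above background, like ADAMTS12, ADAMTS17 and ADAMTS19.

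Genes that act with or beside the proteases were described from lists of 6 to 20 measured genes, without a test. The lists were chosen with earlier results of these data known, so their 2-fold counts may reflect that choice. The shares over all genes, 0.755% at least 2-fold higher and 0.575% at least 2-fold lower, stand beside the main-scale count of every list below. The plasminogen system, a serine protease cascade that activates several MMPs, had 3 of 10 genes at least 2-fold higher (background 0.755%) and 0 lower (0.575%) on the CDR1AS array. PLAU, the urokinase gene, had 22.9 in the authors' deposited table with the control virus and 177.1 with CDR1AS (log2 ratio 2.04, other probe 0.996). PLAUR, the gene of its receptor, had 78.2 and 198.2 (1.05). SERPINE2, the gene of a serpin that inhibits urokinase and thrombin, had 16.7 and 98.0 (1.52). These 3 genes encode a protease, its receptor and an inhibitor. The list's median was 0.19, and ANXA2 (0.35), a plasminogen-binding annexin, came next. PLGRKT, a plasminogen receptor gene, was lowest (−0.31), followed by SERPINF2 (−0.12). After local background subtraction PLAU (0.98), PLAUR (0.50) and SERPINE2 (0.99) were within 2-fold, whereas ANXA2 (1.59) and the genes of 2 more plasminogen-binding proteins, ENO1 (3.60) and S100A10 (5.09), were then past 2-fold higher.

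Partners of the ADAMs went both ways, with 8 of 11 below 0, 1 past 2-fold and a median of −0.10. TSPAN5, a tetraspanin that escorts ADAM10 to the cell surface, had 90.5 and 315.1 in the authors' deposited table (2.82-fold higher on the main scale), but a log2 ratio of −0.12 after local background subtraction. TSPAN14, of the same tetraspanin group, had 37.5 and 14.1 (−0.70, but 0.15 after local background subtraction). FRMD8, which stabilises the iRhom proteins that carry ADAM17, had 377.2 and 244.2 (−0.63), and PDIA6, an oxidoreductase, was second highest (0.11). After local background subtraction both were past 2-fold, FRMD8 lower (−1.83) and PDIA6 higher (2.62). The iRhom genes RHBDF1 (0.06) and RHBDF2 (−0.06) differed little.

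Among 12 measured ligands shed by ADAMs, 7 were above 0 and 1 past 2-fold, with a median of 0.02. FASLG, the death ligand gene, had a log2 ratio of 1.29 (other probe 0.99), and JAG1, a Notch ligand gene, of 0.85 (3.15-fold higher in the authors' deposited table). The transmembrane chemokine genes CX3CL1 (−0.68) and CXCL16 (−0.42) were lowest, and in the authors' deposited table they were 1.96-fold and 5.45-fold lower, CXCL16 with 10.9 and 2.0. Among the 17 cut membrane proteins and gamma-secretase genes 9 were above 0, the receptor kinase gene AXL (2.15) was past 2-fold, and the median was 0.04. The receptor gene MET was at 0.50, and NOTCH1 was lowest by its brightest probe (−0.66, or 0.13 after local background subtraction, other probes 0.0038 and −0.13), followed by the TNF receptor gene TNFRSF1A (−0.39, other probe −0.0058).

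Among 20 matrix substrates 12 were above 0 and FN1, the fibronectin gene, was past 2-fold (1.09, and 0.41 after local background subtraction), with COL7A1 next (0.91), the anchoring-fibril collagen gene. COMP (−0.37) and the laminin gene LAMA5 (−0.18) were lowest, and the median was 0.02. A mixed list of ADAMTS-like, inhibitor and other genes, with PCOLCE (−0.16) and THBD (−0.14) among them, had 7 measured genes. Of these 6 were below 0, with a median of −0.14, which is not a value of inhibitors alone. A2M, which encodes the plasma protease trap alpha-2-macroglobulin, was past 2-fold lower, with 68.1 and 14.4 in the authors' deposited table (−1.27). After local background subtraction it was −0.32. ADAMTSL2 was next lowest (−0.28), and ADAMTSL4 (0.02) and ADAMTSL5 (−0.04) were highest.

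Of 19 transcription factors and inducers of MMP genes 11 were above 0, with a median of 0.02. JUN, the gene of an AP-1 subunit, was the only one past 2-fold, with 56.1 and 289.8 in the authors' deposited table (1.90, and 0.99 after local background subtraction). ETV5 was next (0.69), and FOS (−0.32, other probe 0.14) and ETS2 (−0.19) were lowest.

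**Figure D4:**
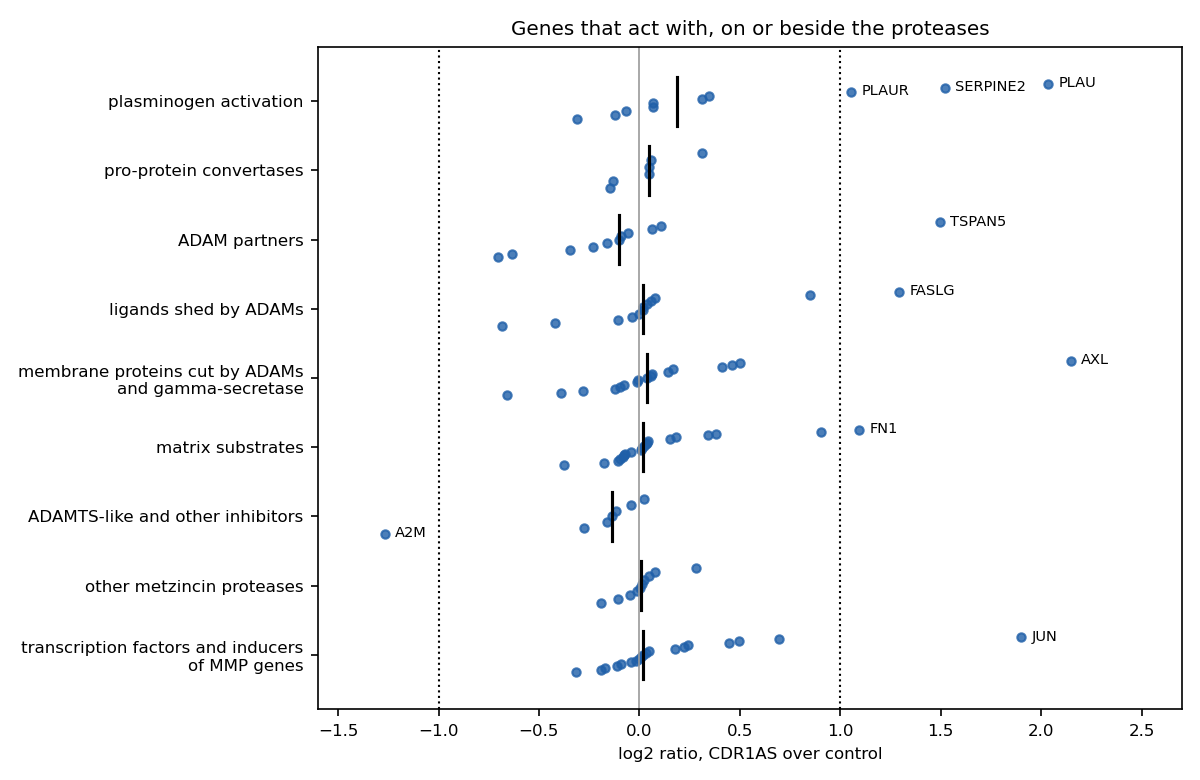
Log2 ratio of the CDR1AS array over the control array for each measured gene (points) of 9 related gene lists, with the list median as a vertical bar and dotted lines at 2-fold. Named genes are those past 2-fold: AXL, PLAU, JUN, SERPINE2, TSPAN5, FASLG, FN1 and PLAUR lie on the right and A2M alone on the left. The medians stay between −0.14 and 0.19.

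The cells carried epithelial markers on both arrays, though some of the markers were dim. Of 12 colon epithelial markers 11 were measured, KRT8 not among them, 6 above 0 and 5 below. Their summed value in the authors' deposited table was 34166 with the control virus and 30763 with CDR1AS, of which the keratin gene KRT18 made up 26667 and 21731. The keratin gene KRT19 was higher (2916 and 5568, log2 ratio 0.83) and CDX2, the intestinal transcription factor gene, was lower (49.8 and 18.2, −0.82), both within 2-fold on the main scale. EPCAM was lower by both probes (4036 and 2866, −0.54, other probe −0.76). After local background subtraction its probes gave 2.12 and −1.05. By spot intensity KRT20 (82.8 and 92.4) and CDX1 (83.2 and 83.4) were dim. CDH17 (67.9 and 73.3) was above background on the CDR1AS array only. Stromal and blood cells are other known sources of MMPs and TIMPs. Of 8 fibroblast markers 5 were measured, with sums of 196 and 181, and COL1A1, COL1A2 and COL3A1 were not above background. Of 9 leukocyte markers 6 were measured, with sums of 107 and 100.5, and PTPRC was not among them. Of 6 endothelial markers 5 were measured, with sums of 70.9 and 82.0, and TEK was not above background. PECAM1 was above background on the CDR1AS array only (13.2 there), and the other 4 summed to 70.9 and 68.8. Of the 8 markers of HEK293, a common lentivirus packaging line, 4 were above 0 and 4 below. VIM was the only one past 2-fold (3.64 by its brightest probe, 0.02 and −0.07 by the others). The sums of the 8 were 406 and 4340, of which that 1 VIM probe made up 298.4 and 4227.1. The part of other cells in the differences above was not tested.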

How the data were processed

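RNA of 1 control and 1 CDR1AS sample was hybridised to Toray arrays with Cy5, per the labels. The deposited spot intensity is the median at 635 nm over 3 scanner gains, per the file headers. Not given in the sources used here are how the gains were joined and the genome build of the probes. The deposited table was checked against the spot files and held intensity minus a blank level times 1 factor per array (largest residual 0.0559). The log2 scale used limma 3.58.1 (R 4.3.3): normexp without local background, offset 50, quantile normalization, log2. Steps were tested on simulated data, with both arrays made from the control array. Recovery of changed probes was required only for the brighter ones, so it does not cover the dim spots of most members. A gene was its brightest probe by mean level, kept where above background on at least 1 array, and genes at or past 2-fold were counted. Where 1 array alone was above background, the dim value was raised to the lowest level above background if under it. The fold was taken from that level, without allowing for the spread of the blanks. Genes came from the platform's annotation, and 65 of 65 member symbols matched RefSeq.

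Members and lists were chosen with earlier results of these data known. Named were the 3 highest and 3 lowest ratios and the 3 highest levels per family, members above background on 1 array, members past 2-fold in either set of values, a fixed group of well-known members, and in each further list the genes past 2-fold and the 2 highest and 2 lowest, of which a few are not printed. Others were named after their values were seen, as were the TCF and TATA motifs.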

Additional observations from a re-analysis of the deposited data

How the results depend on the processing

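The main counts were 0 members past 2-fold higher and 0 lower. With an offset of 16 (background 1.4% higher and 1.04% lower) and in the deposited value table there was 1 higher (TIMP3) and 1 lower (MMP7); the smaller offset compresses dim genes less. With the local background subtracted there was 1 higher (TIMP1) and 0 lower, and the cause was not tested. The other 6 alternatives gave 0 and 0. The median of TIMP genes and RECK, 0.04, became 0.49 in the deposited value table and 0.37 with both arrays at 2 times the background limit, which left TIMP1 and TIMP2 alone, and no MMP or ADAMTS gene. All other family medians stayed within 0.24 of their main value, the largest SD of repeated control spots within an array, which leaves out differences between arrays. Of 272 values of 34 named genes under the 9 alternatives, 244 stayed within that SD of the main value and 28 moved further. Of the 28, 14 were in the deposited value table, 12 with the local background subtracted and 2 with an offset of 16. The 244 overstate stability. Settings that change only the filter on dim probes reuse the main value of each gene they keep. The median over probes can move only genes with more than 1 probe. No paired analysis was possible because each group has 1 array. Signal over background limits most members, and 14 of 65 were not above it.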

Other observations

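Genes next to the members with the largest differences were looked up in the RefSeq order, after the values were seen. Among the 4 measured genes on either side of TIMP3 the log2 ratios ran from −0.35 (MCM5) to 0.51 (HMOX1, the heme oxygenase gene), and those on either side of TIMP2 from −0.08 to 0.06. Beside MMP7, YAP1, the gene of a Hippo pathway co-activator, was at −0.40, BIRC2 at −0.0051 and TMEM123 at −0.15. No neighbour of these 3 members was past 2-fold on the main scale, but TMEM123-DT beside MMP7 was so in the authors' deposited table (log2 ratio 1.02, main scale 0.18). TIMP3 lies within the span of the synapsin gene SYN3 (0.0099) and TIMP4 within that of SYN2 (−0.15), and neither synapsin gene was past 2-fold.

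In a list of 10 further metalloproteases, mostly metzincins, 6 were above 0 and 0 past 2-fold, with a median of 0.0053. CPA4, a carboxypeptidase gene and not a metzincin, was highest (0.28, or −0.01 after local background subtraction), followed by TLL1, of the procollagen C-proteinase group (0.08). In the authors' deposited table TLL1 was 1.94-fold higher, with 1.7 and 3.3. The meprin gene MEP1B was lowest (−0.19; 6.0 and 2.2 in the authors' deposited table, 2.73-fold lower), with PAPPA next (−0.11). Of 6 measured pro-protein convertases, which cut the precursors of ADAMs and of several MMPs, 4 were above 0 and 0 past 2-fold, with a median of 0.05. MBTPS1 (0.31, or −0.28 after local background subtraction) and PCSK6 (0.06) were highest, PCSK7 (−0.15, other probe 0.09) and PCSK4 (−0.13) lowest, and FURIN was near the floor at 72.0 with the control virus and 78.2 with CDR1AS (0.05).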
